A study of Homo sapiens with 6 samples.

Results

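Ion channel genes whose symbols start with KCN, SCN plus a digit, CACN, CLCN, HCN plus a digit, TRPC, TRPV or TRPM, apart from TRPM1, were followed in 6 RNA sequencing libraries of 92.1, an established human uveal melanoma cell line. LBH589 (panobinostat), an inhibitor of histone deacetylases, was given to 3 samples at 0.1 µM for 24 h, and its solvent DMSO was given to the 3 control samples for 24 h. The GENCODE release 29 annotation holds 207 genes with such symbols, 171 of them protein-coding, and 48 protein-coding members were found among the 12010 named genes of the files. The other 159 members, 36 of them non-coding, were not analysed here. Levels are in FPKM, a fragment count scaled to transcript length and library size, and were summed over the listed transcripts of a gene. A transcript is listed in the files where its mean reached 0.5 FPKM in at least 1 group, so a gene close to 0 in both groups does not appear. Whether the 3 samples of a group were separate cultures is not stated, so the p-values rest on a spread that may be purely technical. In bulk RNA, fewer cells that express a gene and less RNA per cell cannot be told apart.

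Potassium channels let potassium out of the cell and hold the membrane potential negative, while voltage-gated sodium and calcium channels, where present, carry the inward current of excitable cells. Pigment cells are not excitable in the way of neurons, but their channels set the resting potential, regulate volume and, in endosomes, lysosomes and melanosomes, the ionic make-up of the organelle. Histone deacetylases work in repressor complexes such as that of REST, which keeps many neuronal genes, ion channel genes among them, silent outside neurons. The name of the set covers more than voltage-gated channels: inward rectifiers (KCNJ), calcium-activated channels (KCNN) and leak channels (KCNK) are not opened by voltage, several CLCN genes encode chloride/proton exchangers of endosomes and lysosomes, and TRPC4AP, an adaptor protein, shares only the prefix of its symbol.

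The libraries summed to between 355148 and 367222 FPKM in LBH589 and between 397174 and 422630 FPKM in DMSO, and their absolute depth is unknown because the files hold no counts. Mitochondrial genes made up between 35.1 and 37.3% of these sums in LBH589, and in DMSO 35.8, 45.7 and 43.9% in replicates 1 to 3, so that DMSO replicate 1 lay with the LBH589 libraries. All 10 melanocyte marker genes were listed, as the label of the cells calls for, with sums between 725 and 780 FPKM in LBH589 and between 2672 and 2788 FPKM in DMSO, and 9 of them fell in the limma test described further on. Of 6 Schwann cell and neural markers, 4 were listed, with sums between 25.8 and 34.9 FPKM in LBH589 and between 13.3 and 16.6 FPKM in DMSO, where SNAP25 and MAP2 rose. Of 6 fibroblast markers, 3 were listed, with sums between 4.56 and 6.25 FPKM in LBH589 and between 1.97 and 2.995 FPKM in DMSO, and 2 rose. Of 6 epithelial markers, 3 were listed, with sums between 8.92 and 11.8 FPKM in LBH589 and between 5.52 and 8.57 FPKM in DMSO, and 1 rose. CD68 was the only listed marker of 6 for immune cells (6.69 to 12.4 FPKM in LBH589 and 11.6 to 16.8 FPKM in DMSO), and none of 4 endothelial markers was listed. The part of these differences in the channel results was not tested.

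Setting the LBH589 libraries against the DMSO libraries addressed which channel genes differ after 24 h with the inhibitor. Potassium channel pore genes that were close to 0 in DMSO, such as KCND2, KCNV1, KCNJ2 and KCNN2, reached between 1.79 and 4.67 FPKM in LBH589. In the other direction, the potassium channel genes KCNAB2 and KCNQ5, among the better expressed members in DMSO, fell to 0.2 and 0.154 times their DMSO means. CLCN3 and TRPM7, the members with the highest means over all libraries, did not pass the test. Tests were run where the mean of all 6 libraries reached 0.5 FPKM, which 32 members did; 15 of these rose and 6 fell in limma at adjusted p below 0.05, beside 27.2% risen, 21.6% fallen and 48.8% called in either direction among all 11520 genes tested. The shares among tested members were 46.9% and 18.8%. The median log2 fold change of log2(FPKM + 1) was 0.45 over the tested members and 0.08 over all tested genes. The members' median was 0.21 after quantile normalization, 0.88 with a pseudocount of 0.1 and -0.30 over the 7 members with a mean of at least 5 FPKM, and 0.30 without DMSO replicate 3. These counts cannot be read as a tendency of the family, since 8 of the 15 risen members had a DMSO mean under 0.5 FPKM and were listed and tested only through their LBH589 values.

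Of the 48 listed members, 22 had means of at least 0.5 FPKM in both groups. Among these, 7 rose, 6 fell and 9 did not pass. For all genes at that level in both groups, 24.5% rose and 21.5% fell of 10460. Listing acted on single transcripts, so the sums of these genes can also hold transcripts listed through 1 group only. An example is the KCNAB2 transcript ENST00000164247.5_1, at 0 in all LBH589 libraries. A further 22 members had a DMSO mean under 0.5 FPKM and 4 an LBH589 mean under 0.5 FPKM. Per library, between 27 and 29 members were at 1 FPKM or more in LBH589 and between 15 and 17 in DMSO, a difference that the listing by group means shapes. With the sums of the libraries made equal, 17 members rose and 5 fell, and the median log2 fold change of all genes moved from 0.08 to 0.23. Fold changes below are those of the deposited FPKM.

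**Figure D1:**
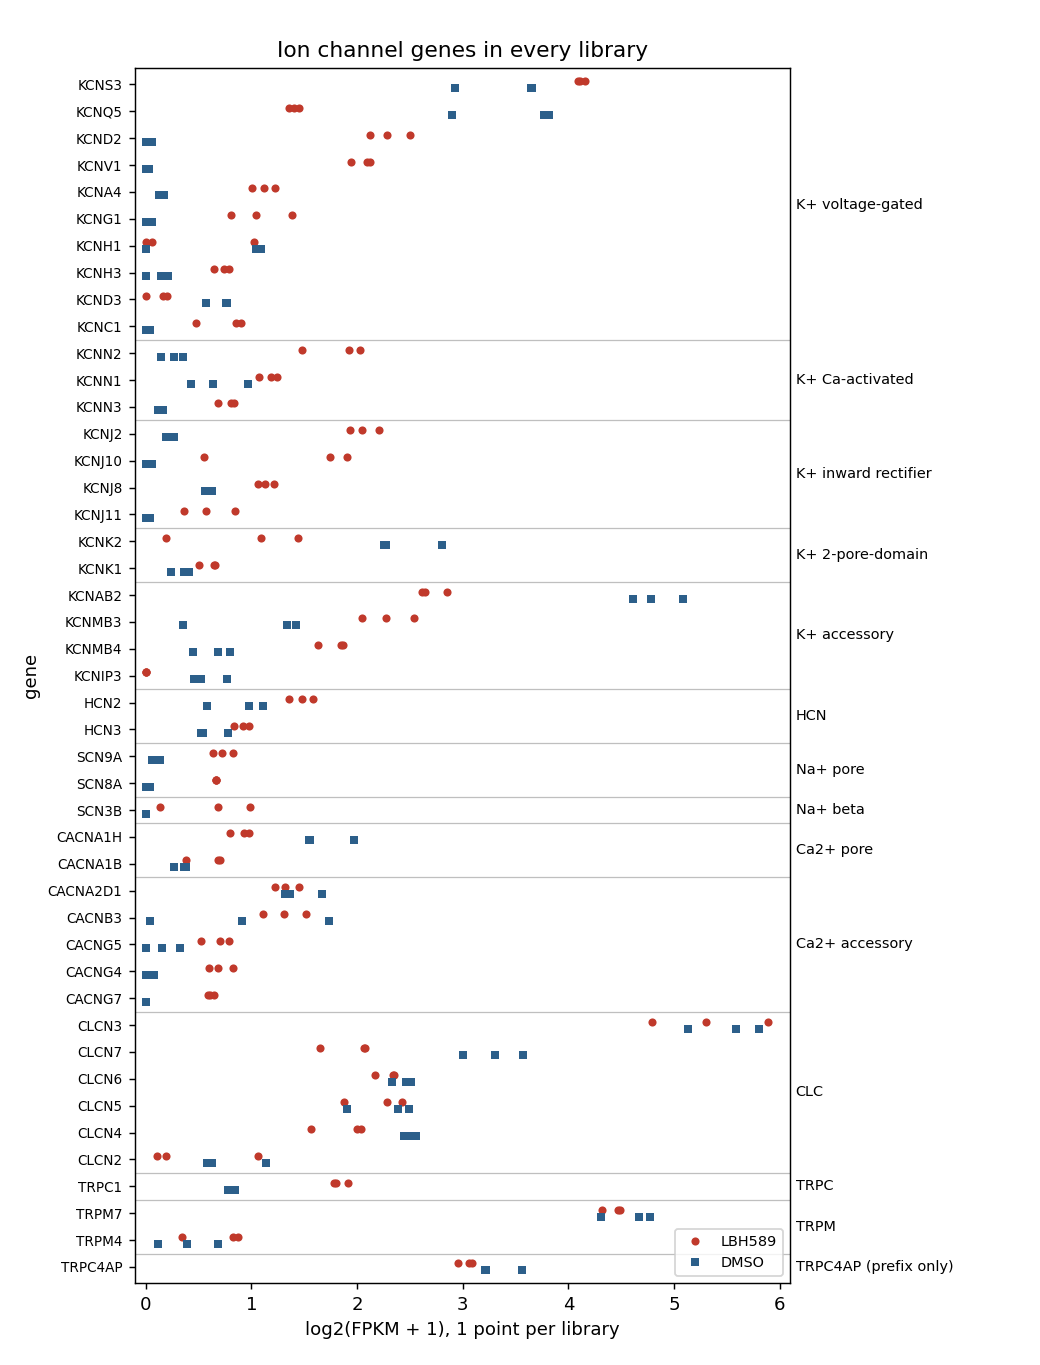
Listed members named in the text, grouped by role, with log2(FPKM + 1) on the horizontal axis and 1 point per library (circles LBH589, squares DMSO). Many voltage-gated and inward rectifier potassium channel genes sit near 0 in DMSO, while KCNAB2, KCNQ5, KCNK2 and CLCN7 lie lower in all LBH589 libraries.

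Voltage-gated potassium channel pore genes made up the largest class, with 40 annotated, 12 listed and 8 tested, of which 6 rose and 1, KCNQ5, fell, beside 27.2% risen and 21.6% fallen among all tested genes. KCND2, KCNV1, KCNG1 and KCNA4, among the risen ones, had DMSO means under 0.5 FPKM and entered the test only through LBH589. KCND2, which encodes a pore subunit of rapidly inactivating A-type channels (ENST00000331113.8_1), was at 3.35, 4.67 and 3.86 FPKM in LBH589 replicates 1 to 3, against 0.0048, 0.0405 and 0.0275 FPKM in DMSO replicates 1 to 3. The LBH589 libraries thus lay above every DMSO library, and the log2 fold change was 2.27 (SE 0.14, adjusted p = 8.05e-05). KCNV1, which encodes a modifier subunit that forms no channel by itself, was at 2.83, 3.35 and 3.27 FPKM in LBH589 and was listed at 0, 0.0194 and 0 FPKM in DMSO (log2 fold change 2.04, SE 0.12, adjusted p = 6.33e-05). KCNG1, which encodes another such modifier subunit, was at 1.06, 1.61 and 0.747 FPKM in LBH589 and at 0.0027, 0.0057 and 0.0444 FPKM in DMSO (log2 fold change 1.05, SE 0.17, adjusted p = 0.00306). Both modifier genes were thus near 0 in every DMSO library and above it in every LBH589 library.

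KCNA4, the gene of an A-type channel of the Shaker family, was at 1.01, 1.17 and 1.33 FPKM in LBH589 and at 0.0951, 0.128 and 0.0936 FPKM in DMSO (log2 fold change 0.97, SE 0.11, adjusted p = 8.53e-04). KCNS3, also a modifier subunit gene and the voltage-gated member with the highest mean over all libraries, was at 16.1, 16.9 and 16.2 FPKM in LBH589 and at 11.6, 6.59 and 11.5 FPKM in DMSO. Its groups did not overlap (log2 fold change 0.71, SE 0.22, adjusted p = 0.0353), but leaving out LBH589 replicate 1, 2 or 3 ended the call (adjusted p between 0.0836 and 0.0969). The fit on the most abundant transcript of every gene also ended it (adjusted p = 0.0611), although KCNS3 has 1 listed transcript and its own values were the same. Without DMSO replicate 2, the lowest DMSO library, the log2 fold change was 0.47.

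KCNQ5, which encodes a subunit of the slowly gated M-current, went the other way. It was at 1.74, 1.56 and 1.65 FPKM in LBH589 and at 6.46, 13.1 and 12.6 FPKM in DMSO. The lowest DMSO library was thus well above the highest LBH589 library (log2 fold change -2.09, SE 0.26, adjusted p = 0.00124), and DMSO replicate 1 was lower than the other DMSO libraries. Nearly all of the level came from ENST00000629977.2_1, which held 100% in LBH589 and 94.1% in DMSO. KCNH1, the gene of an ether-à-go-go channel, varied within both groups, with 1.04, 0 and 0.0393 FPKM in LBH589 and 1.06, 0 and 1.14 FPKM in DMSO, and did not pass (adjusted p = 0.514).

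Further listed voltage-gated members had overall means under 0.5 FPKM and were not tested. KCND3, the close relative of KCND2, was listed at 0, 0.12 and 0.152 FPKM in LBH589 and at 0.481, 0.708 and 0.698 FPKM in DMSO. The order of the groups was the reverse of that of KCND2. However, KCND3 was listed only through its DMSO values and KCND2 only through its LBH589 values. The listing thus shaped both orders, and the contrast cannot be read as a result. KCNC1 was at 0.386, 0.806 and 0.872 FPKM in LBH589, against 0.0201, 0 and 0.0269 FPKM in DMSO. KCNH3 had 0.673, 0.562 and 0.722 FPKM in LBH589 and 0.103, 0.156 and 0 FPKM in DMSO. KCNC1 and KCNH3 were listed only through their LBH589 values.

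**Figure D2:**
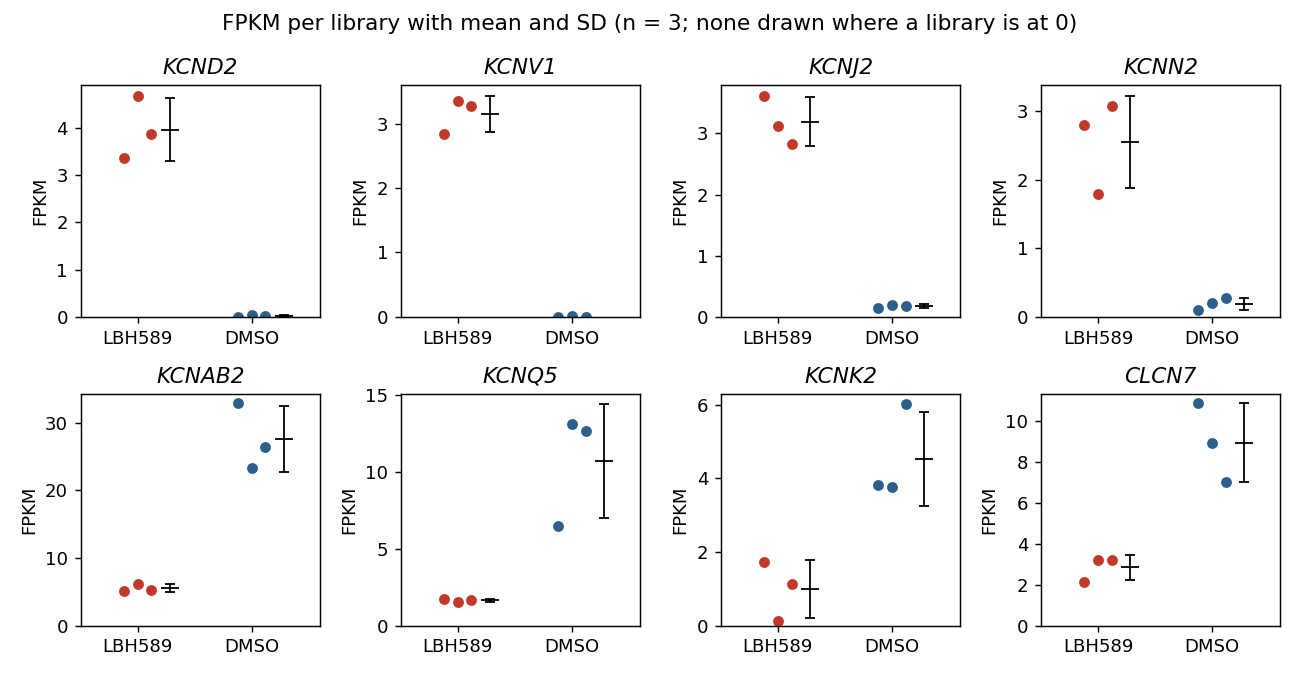
FPKM of 8 members in each library (points), with mean and SD beside them where no library of the group is at 0 (n = 3 per group), LBH589 left and DMSO right. KCND2, KCNV1, KCNJ2 and KCNN2 are close to 0 in all DMSO libraries, and KCNAB2, KCNQ5, KCNK2 and CLCN7 are higher in DMSO without overlap.

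The stretch of 250 bases before the RefSeq start of 4 genes is shown because KCND2 and KCNJ2 were among the largest rises, KCNQ5 was among the largest falls and CLCN7 was a fall whose promoter holds the letters CACGTG at 2 places. The sequences are RefSeq's on GRCh38.p14, a later build than the files' hg19. They lie at chr7:120272925-120273174 (KCND2, plus strand), chr17:70169282-70169531 (KCNJ2, plus strand), chr6:72621814-72622063 (KCNQ5, plus strand) and chr16:1475029-1475278 (CLCN7, minus strand), and are written 5′ to 3′ on the strand of the gene. Capitals mark the GC box letters GGGCGG on either strand and the E-box letters CACGTG, a palindrome.
KCND2: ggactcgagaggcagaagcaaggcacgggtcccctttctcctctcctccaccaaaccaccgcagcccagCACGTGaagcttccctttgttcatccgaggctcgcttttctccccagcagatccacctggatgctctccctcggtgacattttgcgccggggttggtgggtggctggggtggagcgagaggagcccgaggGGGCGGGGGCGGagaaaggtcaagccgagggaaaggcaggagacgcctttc
KCNJ2: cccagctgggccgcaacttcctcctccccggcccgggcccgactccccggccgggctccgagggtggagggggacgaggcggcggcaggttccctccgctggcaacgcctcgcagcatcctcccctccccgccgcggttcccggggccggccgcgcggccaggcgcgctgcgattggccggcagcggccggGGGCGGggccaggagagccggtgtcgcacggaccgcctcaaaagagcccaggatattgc
KCNQ5: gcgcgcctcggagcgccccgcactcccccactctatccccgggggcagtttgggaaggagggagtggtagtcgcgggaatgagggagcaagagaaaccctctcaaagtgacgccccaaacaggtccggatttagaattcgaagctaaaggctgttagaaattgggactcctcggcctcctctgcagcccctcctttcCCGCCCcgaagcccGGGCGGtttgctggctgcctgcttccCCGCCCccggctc
CLCN7: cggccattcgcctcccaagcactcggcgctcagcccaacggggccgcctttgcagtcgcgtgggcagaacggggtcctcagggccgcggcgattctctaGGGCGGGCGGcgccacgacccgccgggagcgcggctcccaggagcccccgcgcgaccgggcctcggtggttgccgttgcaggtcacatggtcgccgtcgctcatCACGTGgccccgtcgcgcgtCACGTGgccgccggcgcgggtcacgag
The promoter table held 53 such stretches for 35 of the 48 listed members. Genes with several starts count more than once. The 14 stretches of risen members came from 10 genes, and the 9 of fallen members from 5 genes. Shares of stretches are therefore not shares of genes, and their differences were not tested. GGGCGG was found on either strand in 32 of these 53 stretches (60.4%), against 42.6% of all 35116 promoters in the table. Of the stretches of risen members, 9 of 14 held it, and of those of fallen members 2 of 9, in CLCN7 and KCNQ5. CACGTG, the core to which MITF, MYC and related factors can bind, was in 8 of 53 (15.1%) against 6.34% of all promoters, in 1 of 14 stretches of risen members (KCND2) and in 3 of 9 of fallen members (CLCN4, CLCN7 and KCNAB2). TCAGCACC, the letters of the left arm of the REST binding element, was in 0 of 53 and in 1.32% of all promoters, and GGACAG, from the right arm, in 8 of 53 (15.1%) against 17.2%. CCAAT was in 18 of 53 (33.96%) against 32.0% of all promoters, TATAAA in 3 of 53 (5.66%) against 10.7%, and TCATGTG, the core of an element bound by MITF, in 2 of 53 (3.77%) against 2.52%. Each motif was searched on both strands, matches of different motifs may overlap, and they describe the letters only. The median GC content was 68.8% over the member stretches and 58% over all.

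Calcium-activated and inwardly rectifying potassium channel genes were under 1 FPKM in every DMSO library. Of 3 listed KCNN genes, which encode small-conductance channels opened by calcium through calmodulin, KCNN2 rose, with 2.797, 1.79 and 3.07 FPKM in LBH589 and 0.102, 0.201 and 0.275 FPKM in DMSO (log2 fold change 1.56, SE 0.18, adjusted p = 7.99e-04). KCNN1 was at 1.28, 1.36 and 1.10 FPKM in LBH589 and at 0.957, 0.553 and 0.349 FPKM in DMSO, and narrowly missed the threshold (log2 fold change 0.49, adjusted p = 0.0539). It passed without DMSO replicate 1, its highest DMSO library (log2 fold change 0.63, adjusted p = 0.0164), and with equal sums or equal medians (adjusted p = 0.0322 and 0.0492). KCNN3 was not tested, with 0.786, 0.608 and 0.751 FPKM in LBH589 and 0.117, 0.121 and 0.083 FPKM in DMSO. In each KCNN gene all LBH589 libraries lay above all DMSO libraries, an order also found in 33.0% of all tested genes. KCNN2 and KCNN3 had DMSO means under 0.5 FPKM and were listed only through their LBH589 values.

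Of 4 listed KCNJ genes, all 3 tested rose, beside 27.2% of all tested genes, and KCNJ2 and KCNJ10 entered the test only through their LBH589 values. KCNJ2, the gene of a strong inward rectifier that holds the resting potential (ENST00000243457.3_1), was at 3.62, 3.13 and 2.83 FPKM in LBH589 and at 0.139, 0.202 and 0.178 FPKM in DMSO (log2 fold change 1.83, SE 0.13, adjusted p = 1.14e-04). Its mean was 18.5 times higher in LBH589. KCNJ8, which encodes the pore of an ATP-sensitive channel, was at 1.19, 1.32 and 1.09 FPKM in LBH589 and at 0.545, 0.51 and 0.476 FPKM in DMSO (log2 fold change 0.54, SE 0.11, adjusted p = 0.00813), a call that ended after quantile normalization (log2 fold change 0.27, adjusted p = 0.11). KCNJ11, which encodes the other pore of that channel type, was not tested, with 0.289, 0.795 and 0.484 FPKM in LBH589 and 0.0286, 0.024 and 0 FPKM in DMSO. It was listed only through its LBH589 values. KCNJ10, known from glia, spread widely within LBH589, where replicate 1 was at 0.462 FPKM and replicates 2 and 3 at 2.73 and 2.36 FPKM, and was listed at 0.0118, 0.0389 and 0 FPKM in DMSO (log2 fold change 1.37, SE 0.36, adjusted p = 0.0215). Leaving out LBH589 replicate 2 or 3, or DMSO replicate 1, 2 or 3, ended the KCNJ10 call, with adjusted p between 0.0562 and 0.0702.

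KCNK genes encode leak channels that are open at rest. KCNK2, the gene of a channel opened by stretch and lipids, fell, with 1.71, 0.14 and 1.13 FPKM in LBH589 and 3.82, 3.76 and 6.002 FPKM in DMSO (log2 fold change -1.54, SE 0.35, adjusted p = 0.0132). The groups did not overlap, but LBH589 replicate 2 stood below the other LBH589 libraries. In DMSO replicate 3 the level came mainly from ENST00000391894.6_1 (5.02 FPKM), which was listed at 0 in the other DMSO libraries, and with the most abundant transcript alone the fall did not pass (log2 fold change -0.94, adjusted p = 0.214). KCNK1, not tested, was at 0.418, 0.575 and 0.566 FPKM in LBH589 and at 0.282, 0.327 and 0.182 FPKM in DMSO. It was listed only through its LBH589 values.

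Accessory subunit genes of potassium channels moved in both directions, with 2 risen and 1 fallen of 3 tested. Among all tested genes 27.2% rose and 21.6% fell. KCNAB2, a cytoplasmic beta subunit of Shaker-type channels with the fold of an aldo-keto reductase, showed the largest fall of the tested members on the log2(FPKM + 1) scale. It was at 5.14, 6.20 and 5.25 FPKM in LBH589 and at 32.9, 23.4 and 26.5 FPKM in DMSO (log2 fold change -2.12, SE 0.15, adjusted p = 1.45e-04). Its 13 listed transcripts did not fall alike: ENST00000164247.5_1, which held 38.97% of the level in DMSO with 14.7, 7.88 and 9.70 FPKM, was listed at 0 in all LBH589 libraries, whereas ENST00000445501.5_1 was at 1.09, 0.908 and 0.589 FPKM in LBH589 and at 0.367, 0.219 and 0.332 FPKM in DMSO. Transcripts were not tested one by one. KCNMB4, a beta subunit of the large-conductance calcium-activated channel, was at 2.59, 2.64 and 2.098 FPKM in LBH589 and at 0.611, 0.737 and 0.361 FPKM in DMSO (log2 fold change 1.14, SE 0.15, adjusted p = 0.00133). KCNMB3, a relative of KCNMB4, was at 3.13, 4.81 and 3.83 FPKM in LBH589 and at 0.275, 1.53 and 1.67 FPKM in DMSO (log2 fold change 1.25, SE 0.32, adjusted p = 0.0197), a call lost on leaving out LBH589 replicate 2 or 3 (adjusted p = 0.0668 and 0.0582) or with the most abundant transcript alone (0.0513). The pore gene KCNMA1, to which both subunits belong, was not analysed here. KCNIP3, a calcium-binding partner of the KCND channels, was listed at 0 in all LBH589 libraries and at 0.703, 0.436 and 0.368 FPKM in DMSO, too low to be tested. It was listed only through its DMSO values.

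HCN genes encode pacemaker channels that open on hyperpolarisation. HCN2 was at 1.56, 1.79 and 1.999 FPKM in LBH589 and at 1.15, 0.963 and 0.493 FPKM in DMSO (log2 fold change 0.59, SE 0.17, adjusted p = 0.0322). Its call was lost without LBH589 replicate 1, 2 or 3 or DMSO replicate 2 or 3 (adjusted p between 0.0566 and 0.0948), after quantile normalization (log2 fold change 0.36, adjusted p = 0.0731) and with the most abundant transcript per gene (adjusted p = 0.0601). HCN2 has 1 listed transcript, so its own values were the same in that last setting. HCN3 was at 0.975, 0.778 and 0.887 FPKM in LBH589 and at 0.46, 0.718 and 0.435 FPKM in DMSO and did not pass (adjusted p = 0.104), although it did with equal sums (log2 fold change 0.37, adjusted p = 0.0483), and quantile normalization put its log2 fold change at -0.0075.

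Sodium channel genes appeared only at a trace level, and none was tested. SCN9A was at 0.557, 0.647 and 0.771 FPKM in LBH589 and at 0.0403, 0.0746 and 0.0992 FPKM in DMSO. SCN8A, the pore gene of the main channel of axons, was at 0.588, 0.59 and 0.581 FPKM in LBH589 and was listed at 0.0277, 0 and 0.0084 FPKM in DMSO. SCN3B, a beta subunit gene, was at 0.987, 0.608 and 0.0977 FPKM in LBH589 and was listed at 0 in DMSO. These 3 genes were listed only through their LBH589 means, and the counting error of such values cannot be given.

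Of the calcium channel pore genes, CACNA1H, which encodes a low-voltage-activated T-type channel, fell, with 0.734, 0.901 and 0.964 FPKM in LBH589 and 2.93, 1.93 and 1.91 FPKM in DMSO (log2 fold change -0.79, SE 0.16, adjusted p = 0.00838). Its transcript ENST00000638323.1_1, with 69.5% of the level in DMSO, was listed at 0 in all LBH589 libraries, while ENST00000348261.10_1 was at 0.867 ± 0.119 FPKM in LBH589 and at 0.688 ± 0.775 FPKM in DMSO (SD, n = 3 each). With the most abundant transcript alone the log2 fold change was -1.25 and narrowly missed the threshold (adjusted p = 0.0521). CACNA1B, the N-type channel gene of nerve terminals, was not tested, at 0.302, 0.632 and 0.605 FPKM in LBH589 and 0.287, 0.301 and 0.200 FPKM in DMSO. Its groups did not overlap, an order also found in 33.0% of all tested genes, but LBH589 replicate 1 lay only just above DMSO replicate 2. CACNA1B was listed only through its LBH589 mean, which shapes that order. The accessory genes CACNA2D1 and CACNB3 did not pass. CACNA2D1, which brings pore subunits to the membrane, was at 1.34, 1.74 and 1.495 FPKM in LBH589 and at 1.58, 1.49 and 2.17 FPKM in DMSO (adjusted p = 0.563). CACNB3, a cytoplasmic beta subunit, was at 1.16, 1.48 and 1.86 FPKM in LBH589 and at 0.877, 2.32 and 0.0295 FPKM in DMSO (adjusted p = 0.448), and its log2 fold change of 0.42 was -0.0054 without DMSO replicate 3. CACNG4, CACNG5 and CACNG7, whose products are better known as partners of AMPA receptors, were between 0.44 and 0.772 FPKM in LBH589 and at most at 0.249 FPKM in DMSO, with CACNG7 listed at 0 there, and were not tested. These CACNG genes were listed only through their LBH589 values.

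**Figure D3:**
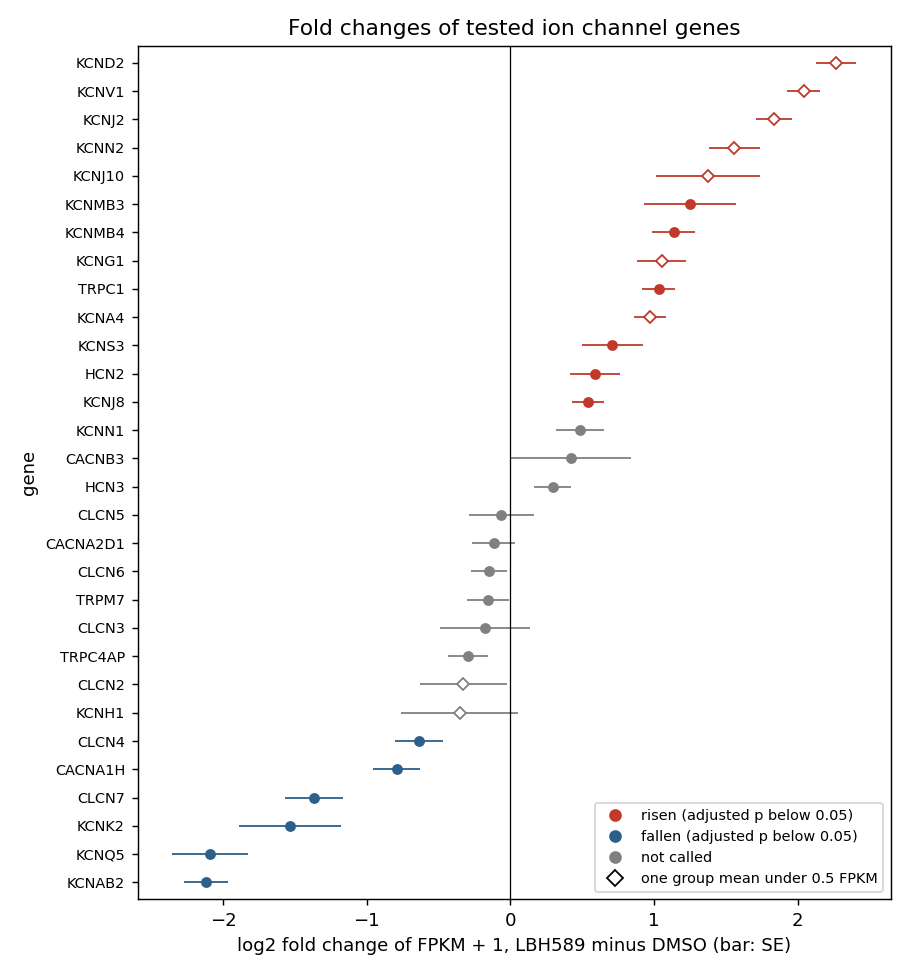
Log2 fold change of FPKM + 1 (LBH589 minus DMSO) with its SE for tested members named in the text, ordered by size (red risen, blue fallen, grey not called). Open diamonds mark members with a group mean under 0.5 FPKM, among them KCND2, KCNV1, KCNJ2 and KCNN2 at the top and none of the 6 fallen ones.

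The CLCN family held the most abundant member. Of its 6 tested genes none rose and 2, CLCN7 and CLCN4, fell, beside 27.2% risen and 21.6% fallen among all tested genes. CLCN7, the chloride/proton exchanger of lysosomes, was at 2.14, 3.18 and 3.20 FPKM in LBH589 and at 10.9, 8.90 and 7.02 FPKM in DMSO (log2 fold change -1.37, SE 0.20, adjusted p = 0.00227). Its fall was uneven across transcripts. ENST00000569851.6_1 was listed at 0 in all LBH589 libraries and at 2.15, 4.05 and 3.07 FPKM in DMSO, while the transcript with the highest mean over all libraries, ENST00000382745.8_1, was at 2.14, 1.70 and 1.77 FPKM in LBH589 and 4.64, 1.57 and 0.896 FPKM in DMSO. With that transcript alone the log2 fold change was -0.08 (adjusted p = 0.911). CLCN4, an exchanger of endosomes, was at 1.95, 2.999 and 3.11 FPKM in LBH589 and at 4.44, 4.67 and 4.88 FPKM in DMSO (log2 fold change -0.64, SE 0.17, adjusted p = 0.0213). Leaving out DMSO replicate 2 or 3 ended the CLCN4 call (adjusted p = 0.0591 and 0.0545), as did equal sums (0.0564), and with the most abundant transcript alone the log2 fold change was 0.45 (adjusted p = 0.723).

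Among the CLCN genes that did not pass, CLCN3, an endosomal exchanger and the most abundant member of all, ranged widely in both groups, with 26.6, 58.3 and 38.4 FPKM in LBH589 and 33.9, 47.1 and 54.9 FPKM in DMSO (adjusted p = 0.67). LBH589 replicate 2 was the highest library, and ENST00000360642.7_1 and ENST00000507875.5_1 were at 19.6 and 7.96 FPKM there, against at most 0.323 FPKM in the other LBH589 libraries. Without LBH589 replicate 1, the lowest library, its log2 fold change was 0.089 in place of -0.18, and without LBH589 replicate 2 it was -0.46. CLCN5 and CLCN6 overlapped between groups, with means of 3.64 ± 0.867 and 3.88 ± 0.337 FPKM in LBH589 and 3.86 ± 0.99 and 4.42 ± 0.34 FPKM in DMSO (SD, n = 3 each; adjusted p = 0.839 and 0.365). CLCN2, a plasma membrane chloride channel, was at 0.145, 0.0764 and 1.09 FPKM in LBH589 and at 1.204, 0.542 and 0.497 FPKM in DMSO (adjusted p = 0.413).

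**Figure D4:**
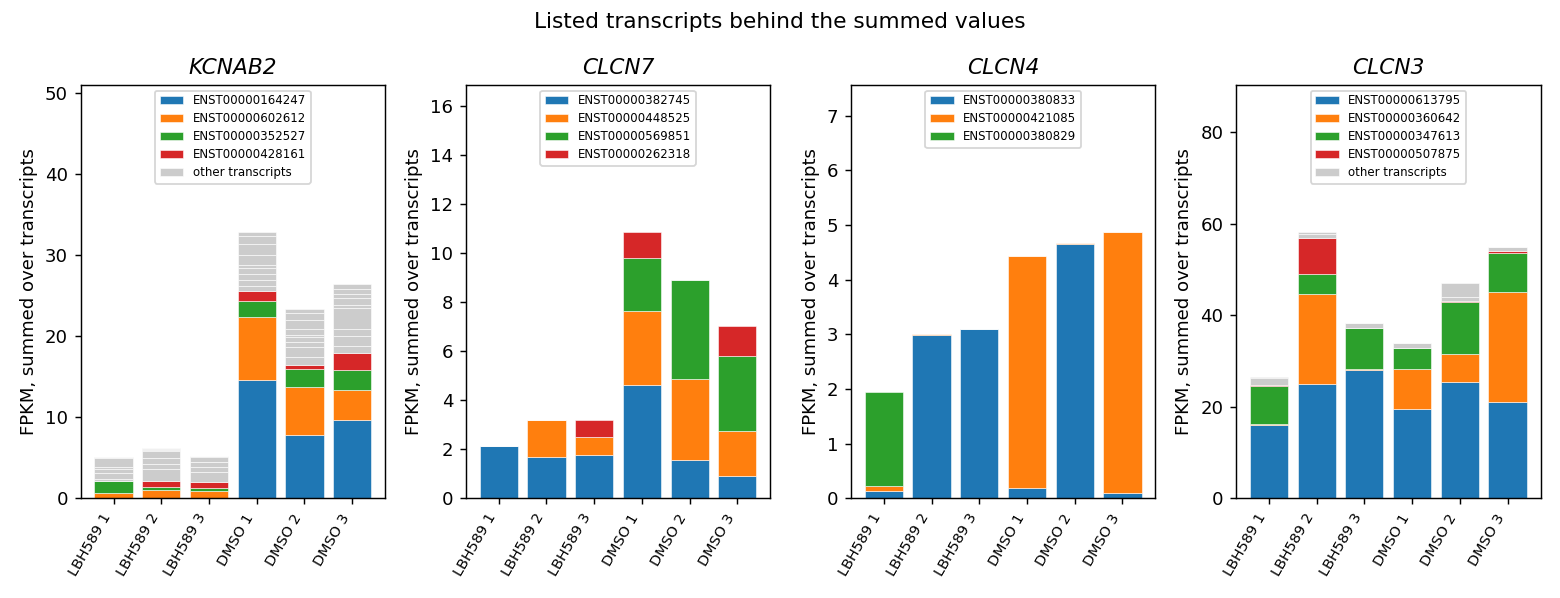
FPKM of the listed transcripts stacked per library for KCNAB2, CLCN7, CLCN4 and CLCN3 (LBH589 libraries left, DMSO libraries right; the 4 transcripts with the highest means in colour, others grey). The leading KCNAB2 transcript is at 0 in all LBH589 libraries, and in CLCN4 different transcripts hold the level in different libraries of the same group.

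The split between CLCN4 transcripts did not follow treatment. ENST00000421085.6_1 carried the level in DMSO replicates 1 and 3 (4.26 and 4.78 FPKM), ENST00000380833.8_1 in DMSO replicate 2 (4.65 FPKM) and in LBH589 replicates 2 and 3 (2.99 and 3.10 FPKM), and ENST00000380829.5_1 in LBH589 replicate 1 (1.72 FPKM). The sums over transcripts were closer together within each group, and it is the sums that were tested.

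Few TRP channel genes were listed, 3 of 19, and none of the 6 TRPV genes. TRPC1, a cation channel subunit linked to receptor and store signalling, rose, with 2.44, 2.48 and 2.78 FPKM in LBH589 and 0.725, 0.795 and 0.715 FPKM in DMSO (log2 fold change 1.03, SE 0.11, adjusted p = 7.18e-04). All LBH589 libraries were at about the same level, and so were all DMSO libraries. Both listed TRPC1 transcripts had higher means in LBH589 (1.405 ± 0.225 and 1.16 ± 0.117 FPKM), with 0, 0.611 and 0.715 FPKM and 0.725, 0.184 and 0 FPKM in DMSO, and the more abundant transcript alone did not pass (log2 fold change 0.77, adjusted p = 0.0607). TRPM7, a magnesium-permeable channel fused to a kinase and second to CLCN3 by the mean over all libraries, was at 21.1, 21.5 and 18.9 FPKM in LBH589 and at 18.8, 24.4 and 26.3 FPKM in DMSO (log2 fold change -0.16, adjusted p = 0.411, and 0.014 with equal sums). TRPM4, a calcium-activated cation channel gene, overlapped between groups, at 0.772, 0.265 and 0.835 FPKM in LBH589 and 0.087, 0.607 and 0.312 FPKM in DMSO, and was not tested. TRPC4AP, the adaptor gene, was at 7.33, 7.52 and 6.73 FPKM in LBH589 and at 10.8, 8.30 and 8.24 FPKM in DMSO. Its groups did not overlap, but it did not pass (adjusted p = 0.125).

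The 48 members summed to 157 ± 20.2 FPKM in LBH589 and 168 ± 9.92 FPKM in DMSO (SD, n = 3 each, not tested). CLCN3, TRPM7 and KCNAB2 together held between 38.5 and 48.4% of that sum in LBH589 and between 53.8 and 60.2% in DMSO. Potassium channel pore genes summed to 44.3, 47.3 and 50.9 FPKM in LBH589 and to 26.9, 27.7 and 34.5 FPKM in DMSO, and the potassium channel accessory genes to 10.9, 13.6 and 11.2 FPKM in LBH589 and to 34.5, 26.1 and 28.9 FPKM in DMSO. Of the accessory mean of 29.8 FPKM in DMSO, KCNAB2 alone held 27.6 FPKM, and it was at 5.53 FPKM in LBH589. KCNMB3 and KCNMB4 were higher in LBH589, and KCNIP3 was listed at 0 there. The fall of the accessory sum is thus that of KCNAB2. The KCN genes as a whole thus summed to 59.4 ± 3.70 FPKM in LBH589 and 59.5 ± 5.12 FPKM in DMSO. The listed SCN, CACN and HCN genes, 13 in all, together summed to 12.3 ± 0.585 FPKM in LBH589 and 7.15 ± 1.32 FPKM in DMSO. Of the 21 listed potassium channel pore genes, 13 had a DMSO mean under 0.5 FPKM and 2 an LBH589 mean under 0.5 FPKM. For the SCN, CACN and HCN genes these numbers were 8 and 0. Such genes were listed only through the other group. The sums of both sets were thus shaped by the listing and cannot be read as a tendency.

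The LBH589 and DMSO libraries did not overlap in 24 of the 32 tested members, with LBH589 above in 17 and below in 7, beside 33.0% above, 26.5% below and 59.5% in either direction among all tested genes. Besides the called members these were KCNN1, HCN3 and TRPC4AP.

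For comparison, a list of 88 other channel, pump and channel-regulating genes had 54 listed and 52 tested genes, of which 15 rose and 16 fell, beside 27.2% risen and 21.6% fallen among all tested genes. GEM, a small GTPase that inhibits voltage-gated calcium channels, rose to 87.4 ± 2.79 FPKM in LBH589, against 5.83 ± 0.906 FPKM in DMSO (SD, n = 3 each; adjusted p = 1.74e-05). ATP1B1, a beta subunit of the sodium pump, rose to 66.9 ± 5.24 FPKM in LBH589, against 9.59 ± 0.602 FPKM in DMSO (adjusted p = 2.43e-05). FGF12, an intracellular partner of sodium channels, was at 2.04, 1.76 and 2.29 FPKM in LBH589 and was listed at 0 in DMSO (adjusted p = 1.51e-04). It was listed and tested only through its LBH589 values. Further risen genes of the list had DMSO means under 0.5 FPKM and entered the test in the same way. Some fallen ones had LBH589 means under 0.5 FPKM and entered only through DMSO. Among calcium release and extrusion genes, ITPR1 rose to 11.6 ± 0.436 FPKM in LBH589, against 1.45 ± 0.127 FPKM in DMSO (adjusted p = 4.14e-05), and its relative ITPR3 fell to 2.56 ± 0.114 FPKM in LBH589, against 11.97 ± 1.13 FPKM in DMSO (adjusted p = 9.13e-05). ATP2B1, a calcium pump of the plasma membrane, rose to 63.7 ± 6.53 FPKM in LBH589, against 20.3 ± 2.73 FPKM in DMSO (adjusted p = 2.48e-04).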

How the data were processed

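RNA of 3 LBH589 and 3 DMSO samples was sequenced. For 30624 transcripts the authors deposited FPKM values, per the file headers. The submitters' processing notes name Bowtie 0.12.2 and hg19 and give no role for either. The quantification tool, and whether it used strand, is not given in the sources used here, so antisense or overlapping genes may share reads. Identifiers matched GENCODE release 29 for 30504 transcripts, and FPKM was summed per gene. Summing adds values divided by different transcript lengths. The test used limma 3.58.1 in R 4.3.3, with trend and robust moderation, on log2(FPKM + 1) of the 11520 genes whose overall mean reached 0.5 FPKM, called at Benjamini-Hochberg adjusted p below 0.05. Fold changes are LBH589 minus DMSO on that scale, which understates changes of low genes. The test was checked on simulated data. Low values piled up at a step in the DMSO libraries, but absolute depth was not estimated, so no counting interval is given. Alternatives were another pseudocount (0.1), other filters (none, 5 FPKM), equal sums, equal medians, quantile normalization, limma without trend and robust moderation, the most abundant transcript, a replicate block and leaving out each library. Members and lists were chosen with earlier results of these data known. By rule, values of every library are given for up to 12 rises, up to 12 falls and the most abundant member of each class. Of the list of other channel genes, the 6 with the smallest adjusted p are named. Library values of further members, the transcripts named, the motifs and the promoters shown were chosen after their values were seen. Some members are counted but not reported here by name.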

Additional observations from a re-analysis of the deposited data

How the results depend on the processing

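Of the 21 called members, 11 kept their direction and call in every alternative in which they were tested, 9 of the 15 risen and 2 of the 6 fallen, KCNAB2 and KCNQ5. Without a filter 24 members rose and 8 fell, since low genes entered; at a mean of at least 5 FPKM only 1 rose and 3 fell, since few members remained, and 3590 of all genes were called in place of 5617. With the most abundant transcript 2 members fell, and in the list of other channel genes 10 fell, against 7 at 5 FPKM and 16 as reported. Leaving out 1 library gave between 11 and 15 risen and between 5 and 6 fallen members. The log2 fold change changed sign for CLCN4 (0.45), CLCN6 (0.59) and CLCN3 (0.033) with the most abundant transcript, for CLCN5 (0.077) and TRPM7 (0.014) with equal sums and for HCN3 (-0.0075) with quantile normalization. Leaving out 1 library put it between -0.46 and 0.089 for CLCN3, the highest without LBH589 replicate 1, between -0.24 and 0.0945 for CLCN5, positive without LBH589 replicate 3 or DMSO replicate 1 (0.05), and between -0.0054 and 0.84 for CACNB3, the lowest without DMSO replicate 3. Among these only CLCN4 had been called, and the cause was not tested.

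No pairing by replicate number was seen: the deviations of same-numbered libraries correlated at -0.10, 0.02 and -0.04 (replicates 1 to 3). No library correlated best with its own number. With 3 libraries per group such correlations cannot exclude a pairing. With the replicate number as a block 13 members rose and 6 fell, 4789 of all genes were called, and the adjusted p was 0.0615 for KCNS3 and 0.0858 for HCN2. Low FPKM limits members near 0.5 FPKM: KCNH1, at a mean of 0.546 FPKM, was just inside the level tested and TRPM4, at 0.48 FPKM, just outside.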
